A study of Mus musculus with 6 samples.

Results

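RefSeq transcripts that carry a non-coding accession and a proper gene name were followed across the 3 groups of a mouse muscle array study. A probe was taken where its target accession began with NR_, where its gene was neither a small RNA nor known only by a Gm number or a RIKEN name, and where the scanner software marked it as well above background on the full pair of arrays of some group. Members were thus chosen by their detection flags. This gave 147 probes of 127 gene symbols, out of 352 named candidates of 302 symbols and 55681 probes on the array. Which of them were detected is therefore a description and not a result. RefSeq classes 94 of the 147 probes (83 symbols) as long non-coding RNA, 37 (29 symbols) as transcribed pseudogenes, 14 (13 symbols) as non-coding variants of protein-coding genes, 1 as a miscellaneous RNA and 1, Rn4.5s, as a ribosomal RNA. The set is therefore called named non-coding transcripts here, since the name long non-coding RNA holds for only part of it.

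The groups were MDX mice given the bioceramic water JJ101 (MDX_JJ101), MDX mice given tap water (MDX_tap) and C57BL/10 mice given tap water (B10_tap), with 2 arrays each and 10 months on the water. MDX mice carry a mutation of the dystrophin gene and lack functional dystrophin, and both MDX groups share it. Total RNA, labelled as coming from gastrocnemius, a muscle of the calf, was hybridised to single-colour Agilent arrays with the dye Cy3. Replicates are numbered in the labels, with no word on separate mice, so p-values measure the spread between these samples, which may be technical.

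Long non-coding RNAs are transcripts that act, where they act at all, as RNA. Some, such as Malat1 and Neat1, build or occupy bodies of the nucleus, some silence neighbouring genes in cis at imprinted loci, as Kcnq1ot1 and Airn do, and others are spliced carriers whose introns release small RNAs. The Snhg genes belong to the last kind: their introns hold small nucleolar RNAs, which guide the chemical modification of ribosomal RNA, and the spliced exons are what an array probe reads. In heart muscle the best known example is Mhrt, an antisense transcript of the myosin heavy chain locus Myh7.

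A level below is a log2 processed signal from which the array's 75th percentile was taken off, so a level of 0 is the signal of that percentile and a difference of 1 is a doubling. Differences were tested with limma over all 27258 probes that passed the same detection filter, and a probe passed the test at a Benjamini-Hochberg adjusted p under 0.05. Spots well above background made up 43.8% and 42.5% of the MDX_JJ101 arrays, 49.6% and 48.1% of the MDX_tap arrays and 51.6% and 51.4% of the B10_tap arrays. All 6 arrays lay on 1 slide, with MDX_JJ101 in the second row and the others in the first, so slide row and JJ101 cannot be told apart. MDX_tap and B10_tap lay in different columns, and position across the slide cannot be told apart from genotype.

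The labelled tissue was set against marker genes. Of 14 heart markers 13 were well above background on all 6 arrays, and their summed linear level was 8384 and 8369 in MDX_JJ101, 6906 and 7564 in MDX_tap and 7914 and 7782 in B10_tap. Of 16 limb muscle markers 3 were well above background on all 6 arrays, and Myod1, Myf5, Myog, Mstn and Mylpf, among them the regulators that define limb muscle, were detected on none. The other 8 limb muscle markers were detected on some arrays: Myf6 on 3, Pax7, Myh1, Myh2, Myh4, Actn3 and Ryr1 on 4 and Tnnt3 on 5. The summed linear level of the limb muscle markers was 144.5 and 187.7 in MDX_JJ101, 74.15 and 113.4 in MDX_tap and 117.3 and 104.5 in B10_tap. The brightest of them was Ckm, at 7.15 and 7.53, 6.01 and 5.94, and 6.46 and 6.37 in the same groups. On the linear scale Ckm made up most of every limb muscle sum, so these sums mainly follow this 1 gene. Heart markers were thus detected throughout and at high levels, while the limb muscle list was detected in part and at lower summed levels. Which tissue the RNA came from was not tested. Of the 11 limb muscle markers tested, 8 fell and 1, Ckm, rose in MDX_JJ101 against MDX_tap (median -3.33). Myh4, a myosin of fast limb fibres, was at -5.52 and -5.42 in MDX_JJ101, 0.91 and 3.53 in MDX_tap and 2.62 and 2.29 in B10_tap. Of 14 macrophage markers on the array, 10 fell and 1 rose in the same comparison (median -1.18), with summed linear levels of 148.2 and 127.8 in MDX_JJ101, 240.1 and 180.4 in MDX_tap and 133.9 and 129.4 in B10_tap. Of 10 fibroblast markers 3 fell, of 7 endothelial markers 5 fell and of 7 smooth muscle and pericyte markers 3 fell, with none of these rising in MDX_JJ101 against MDX_tap. Of 13 heart markers tested 4 rose and 0 fell, with Gata4 at 0.69, Nkx2-5 at 0.96, Tbx5 at 1.13 and Tnni3 at 0.56. Against B10_tap 5 heart markers rose, 8 limb muscle markers fell and 1 rose, 6 of 7 endothelial markers fell, and 1 macrophage marker rose and 0 fell. The part of these shifts in the results below was not tested, and in bulk RNA fewer cells of a type and less RNA per cell cannot be told apart.

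At the edge of the rule, 6 members were well above background on exactly 2 arrays, while 25 candidates that were well above background on some array missed the rule and 180 were detected on none. Just inside it lay a probe for a non-coding variant of Zfp207, at -1.60 and -0.51 in MDX_JJ101, -6.28 and -4.92 in MDX_tap and -4.48 and -4.99 in B10_tap. Just outside lay Sorbs2os, at -0.99 and -5.41 in MDX_JJ101, -6.15 and -5.95 in MDX_tap and -6.30 and -6.17 in B10_tap, detected on 1 array. A second probe for Kcnq1ot1, detected on 1 MDX_tap array, was also outside. Of the members, 103 were well above background on all 6 arrays and 44 on fewer. The array read each member in 1 or more places: 16 symbols had several member probes, and no member spot was saturated.

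The mean levels of the members ran from -4.41 for Mcpt-ps1 to 8.44 for Rn4.5s, with a median of -1.33, against a median of -0.15 over all probes kept. Probes differ in how brightly they report the same amount of RNA, so the order of levels between transcripts was not read. The 8 gene symbols with the highest mean signal included Rn4.5s, a short RNA of rodents transcribed from many copies, Etfb, a variant of the electron transfer flavoprotein gene, H2-K2, a class I histocompatibility gene, Neat1, Selenok-ps1, Norad, Peg13 and Mhrt. Mhrt lay at 4.11 and 3.96 in MDX_JJ101, 3.23 and 3.73 in MDX_tap and 3.85 and 3.76 in B10_tap. It was detected on every array, and its difference of 0.56 (SE 0.19) in MDX_JJ101 against MDX_tap did not pass (adjusted p = 0.0738). It passed with median centring (0.78, adjusted p = 0.0296) and stood at 0.12 with spike-in scaling. Its sense gene Myh7 stood at 0.68 in the same comparison (adjusted p = 0.11). Myh7, and below Kcnq1, Igf2r and the coding probes of variant genes, were picked for comparison after values had been seen.

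In MDX_JJ101 against MDX_tap, named non-coding transcripts mostly fell where they changed. Snhg1, Snhg7 and other hosts of small nucleolar RNAs, the nuclear RNA Malat1 and the imprinted antisense RNA Airn were lower with JJ101. So were the differentiation-related Dancr and the transcript of the Rosa26 locus, Gt(ROSA)26Sor. Kcnq1ot1, another imprinted antisense RNA, was also lower, but it was kept through the tap water groups alone. A smaller group of opposite-strand transcripts and variants of coding genes, with Lppos, Pitpnm2os1 and Bcor among them, was higher. Of the 147 probes 51 passed, or 34.7%, against 33.8% of all probes kept, so the share that changed was near the background. The direction was uneven: 14 member probes rose and 37 fell, so 27.5% of the member calls were rises, against 54.4% of the calls over all probes, of which 18.4% rose and 15.4% fell. The median difference was -0.25 over the members and -0.01 over all probes.

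A member that is detected only outside MDX_JJ101 had to be low there, so the 103 members seen on every array were counted apart. Of these 38 passed, 12 up and 26 down, against 34.6% of the 21775 probes seen on every array, of which 22.4% rose and 12.2% fell. Their median was -0.16, against 0.09 for those probes. By mean level, falls made up 9 of 10 member calls below -3, 9 of 11 between -3 and -1, 11 of 17 between -1 and 1 and 8 of 13 above 1. Over all probes kept they made up 1049 of 1206, 1318 of 1916, 876 of 1989 and 964 of 4096 calls in the same bands. None of the 103 passed when MDX_tap replicate 2 was left out, 5 when MDX_tap replicate 1 was, 9 when either B10_tap replicate was, 12 when MDX_JJ101 replicate 2 was and 37 when MDX_JJ101 replicate 1 was. The 279 probes of Gm and RIKEN named non-coding transcripts, which passed the same filter, had 41 rises and 43 falls with a median of -0.01. Whether the named transcripts differ from the rest was not tested, as these counts and medians are descriptions.

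**Figure D1:**
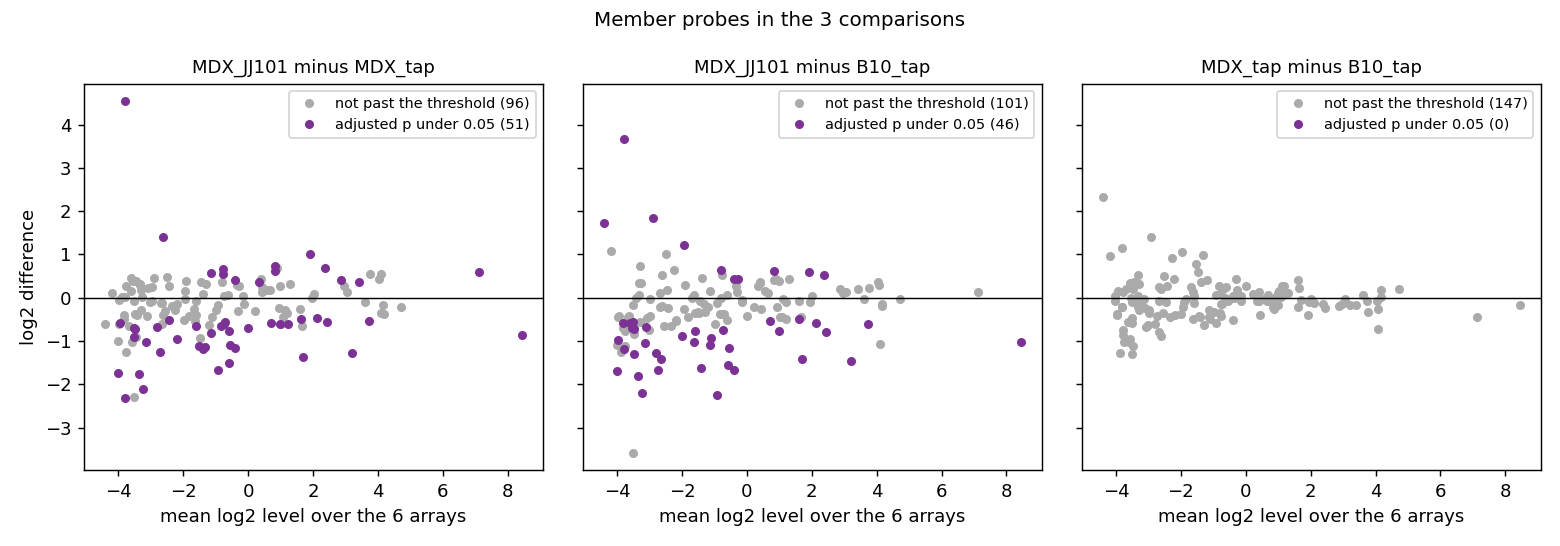
Log2 difference (vertical axis) against mean log2 level over the 6 arrays (horizontal axis) for the 147 member probes in each comparison, purple where the adjusted p was under 0.05 and grey otherwise. Passing probes number 51 in MDX_JJ101 minus MDX_tap, 46 in MDX_JJ101 minus B10_tap and 0 in MDX_tap minus B10_tap, and most purple points lie below 0.

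The split of calls depended on the scaling. With median centring 23 member probes rose and 19 fell, and with spike-in scaling 1 rose and 38 fell. Normexp and quantile normalization gave 11 rises and 32 falls, and the authors' values gave 12 rises and 33 falls. Over all probes 6886 rose and 2342 fell with median centring, and 106 rose and 4843 fell with spike-in scaling. The median of all probes was 0.22 with median centring and -0.44 with spike-in scaling, and the members' median lay below it each time, at -0.03 and -0.69. Under all 5 scalings 15 probes fell and 1, Zfp207, rose. The Zfp207 probe entered the set through the MDX_JJ101 arrays alone, so its direction was fixed by the choice of members. The 15 were Kcnq1ot1, AI662270, Atad3aos, Gdap10, Malat1, Gt(ROSA)26Sor, AW112010, Rps15a-ps6, Snhg7, Dancr, Znf41-ps, Slfn10-ps, Snhg1, Slc8a1 and Rn4.5s. Of these, Kcnq1ot1, AI662270, Atad3aos and Rps15a-ps6 were kept through the tap water groups alone, so their falls were not independent of the choice of members. The number of calls also rested on single arrays: 1 passed without MDX_tap replicate 2, and it was none of the 51; 8 passed when MDX_tap replicate 1 was left out, 13 when either B10_tap replicate was, 22 when MDX_JJ101 replicate 2 was and 56 when MDX_JJ101 replicate 1 was. Over all probes the number of calls also fell in these fits, and likewise rose only without MDX_JJ101 replicate 1. With slide column as a block no member passed, and 0 of all 27258 probes did. In that limma fit 63 members had an unadjusted p under 0.05, as did 11017 of all probes.

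**Figure D2:**
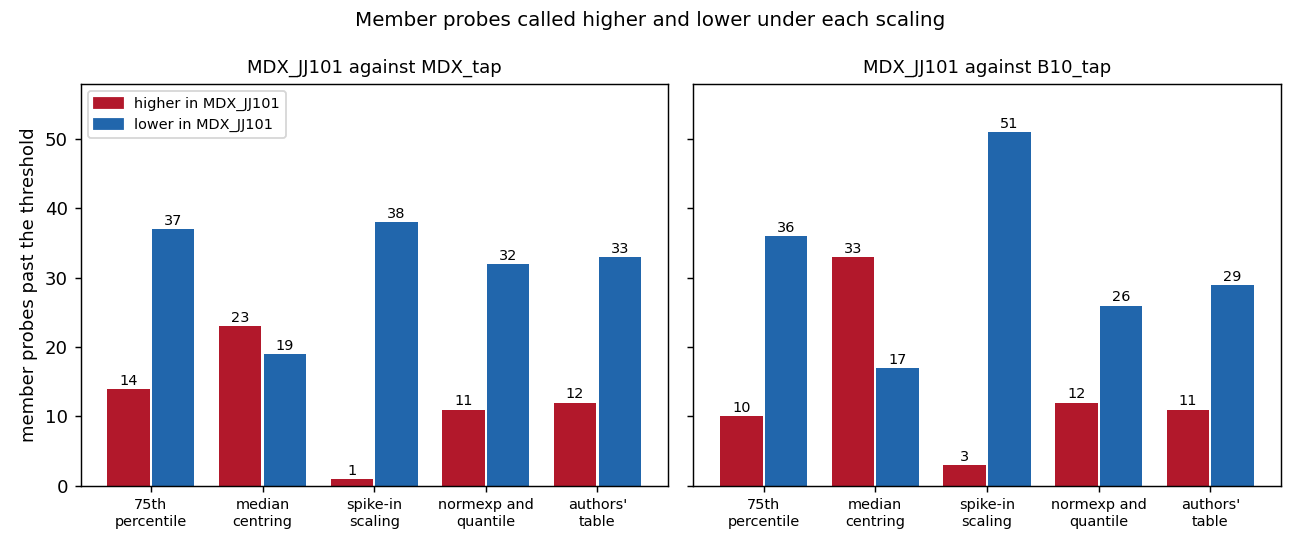
Number of member probes past the threshold (vertical axis) that were higher (red) or lower (blue) in MDX_JJ101 under each of 5 scalings, in 2 comparisons that share the MDX_JJ101 arrays. Falls outnumber rises except with median centring, where 23 rose and 19 fell against MDX_tap and 33 rose and 17 fell against B10_tap.

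Hosts of small nucleolar RNAs mostly fell with JJ101 and none rose. Snhg7 lay at -2.28 and -2.40 in MDX_JJ101, -1.17 and -1.12 in MDX_tap and -0.57 and -0.85 in B10_tap. Snhg1 lay at -1.06 and -1.52 in MDX_JJ101, -0.18 and -0.22 in MDX_tap and -0.14 and -0.13 in B10_tap. Snhg10 lay at -1.23 and -1.15 in MDX_JJ101, -0.67 and -0.50 in MDX_tap and -0.39 and -0.48 in B10_tap. In all 3 hosts both MDX_JJ101 arrays were below all 4 others, with no overlap. Such separation was common on these arrays. Over all probes kept, 71.4% had no overlap between MDX_JJ101 and MDX_tap and 74.3% none between MDX_JJ101 and B10_tap, in either direction. The shares among the members were 66% and 72.8%. The fall against MDX_tap was -1.19 for Snhg7 (SE 0.14, adjusted p = 0.0138), -1.09 for Snhg1 (SE 0.17, adjusted p = 0.0157) and -0.60 for Snhg10 (SE 0.11, adjusted p = 0.0196). Over the 5 scalings the Snhg7 difference ran from -0.55 to -1.63 and that of Snhg1 from -0.68 to -1.52, all past the threshold, while Snhg10 missed it with median centring (-0.38, adjusted p = 0.12) and with spike-in scaling (-1.04, adjusted p = 0.0512).

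The promoters of these 3 hosts, which fell most clearly on arrays where all 6 read them, are shown with their RefSeq start sites (GRCm38.p6, 250 bases before the start to 50 after it). Capitals mark matches on either strand to 4 motifs, which were the GC box GGGCGG, the CCAAT box CCAAT, the TATA box TATAAA and the E-box CACGTG.
Snhg7, minus strand, chr2:26640195-26640494: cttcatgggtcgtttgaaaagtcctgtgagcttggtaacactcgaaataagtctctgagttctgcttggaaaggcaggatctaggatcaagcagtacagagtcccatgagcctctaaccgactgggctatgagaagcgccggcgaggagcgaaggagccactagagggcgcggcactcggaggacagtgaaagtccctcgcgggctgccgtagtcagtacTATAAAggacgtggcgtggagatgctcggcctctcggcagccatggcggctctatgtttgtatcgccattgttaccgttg
Snhg1, plus strand, chr19:8723237-8723536: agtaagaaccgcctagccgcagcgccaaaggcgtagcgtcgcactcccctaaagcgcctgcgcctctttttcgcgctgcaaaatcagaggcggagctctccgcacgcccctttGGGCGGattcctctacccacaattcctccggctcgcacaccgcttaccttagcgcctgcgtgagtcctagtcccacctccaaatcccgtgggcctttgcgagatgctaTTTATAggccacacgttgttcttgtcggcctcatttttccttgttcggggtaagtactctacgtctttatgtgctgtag
Snhg10, minus strand, chr12:105032230-105032529: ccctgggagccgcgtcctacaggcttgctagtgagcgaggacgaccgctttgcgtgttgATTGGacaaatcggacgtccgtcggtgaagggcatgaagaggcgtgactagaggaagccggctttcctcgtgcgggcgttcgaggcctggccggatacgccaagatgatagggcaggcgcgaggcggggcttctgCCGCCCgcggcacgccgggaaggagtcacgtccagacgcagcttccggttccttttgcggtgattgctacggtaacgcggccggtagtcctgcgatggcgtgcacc
Snhg7 and Snhg1 hold a TATA box match shortly before the start and Snhg10 holds none, while Snhg1 and Snhg10 each hold 1 GC box and Snhg10 holds 1 CCAAT box. RefSeq gave 11 promoters for 10 of the host symbols: 4 held the TATA box, 6 the GC box, 3 the CCAAT box and 1 the E-box. Over all 32851 promoters of the same length the shares were 13.6%, 35.7%, 37.4% and 7.15%. A match describes the letters in the window and says nothing of a factor bound there.

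Of the 12 probes for 11 Snhg symbols, 8 fell against MDX_tap and 0 rose (median -0.57), where 15.4% of all probes fell and their median was -0.01. The 8 include Snhg5 and 1 Snhg16 probe, which were kept through tap water arrays alone, so their falls were not independent of that choice. Of the 10 probes seen on all 6 arrays 6 fell and 0 rose (median -0.51). Of all probes seen on all 6 arrays 12.2% fell. Besides the 3 above, Snhg6 fell by 0.53 (SE 0.12, adjusted p = 0.0282), Snhg18 by 0.50 (SE 0.12, adjusted p = 0.0304) and Snhg3 by 0.46 (SE 0.13, adjusted p = 0.0493). Snhg5 was well above background on no MDX_JJ101 array and was at least 1.01-fold lower (adjusted p = 0.032). One of 2 Snhg16 probes passed on the low side (adjusted p = 0.0329) but was not well above background in MDX_JJ101, and the other stood at -0.23 (adjusted p = 0.215). Snhg15 at -0.65 (adjusted p = 0.0772) and Snhg12 at -0.46 (adjusted p = 0.0517) did not pass, and Snhg17, at 0.05, was the one probe with a positive difference. The list's median was negative under all 5 scalings, and 2 probes passed with median centring and 5 with spike-in scaling. Without MDX_tap replicate 2 the list kept its direction (11 of 12 probes negative, median -0.61) and 0 passed. Leaving out 1 array at a time otherwise gave 1 (MDX_tap replicate 1), 2 (either B10_tap replicate), 3 (MDX_JJ101 replicate 2) or 8 (MDX_JJ101 replicate 1).

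**Figure D3:**
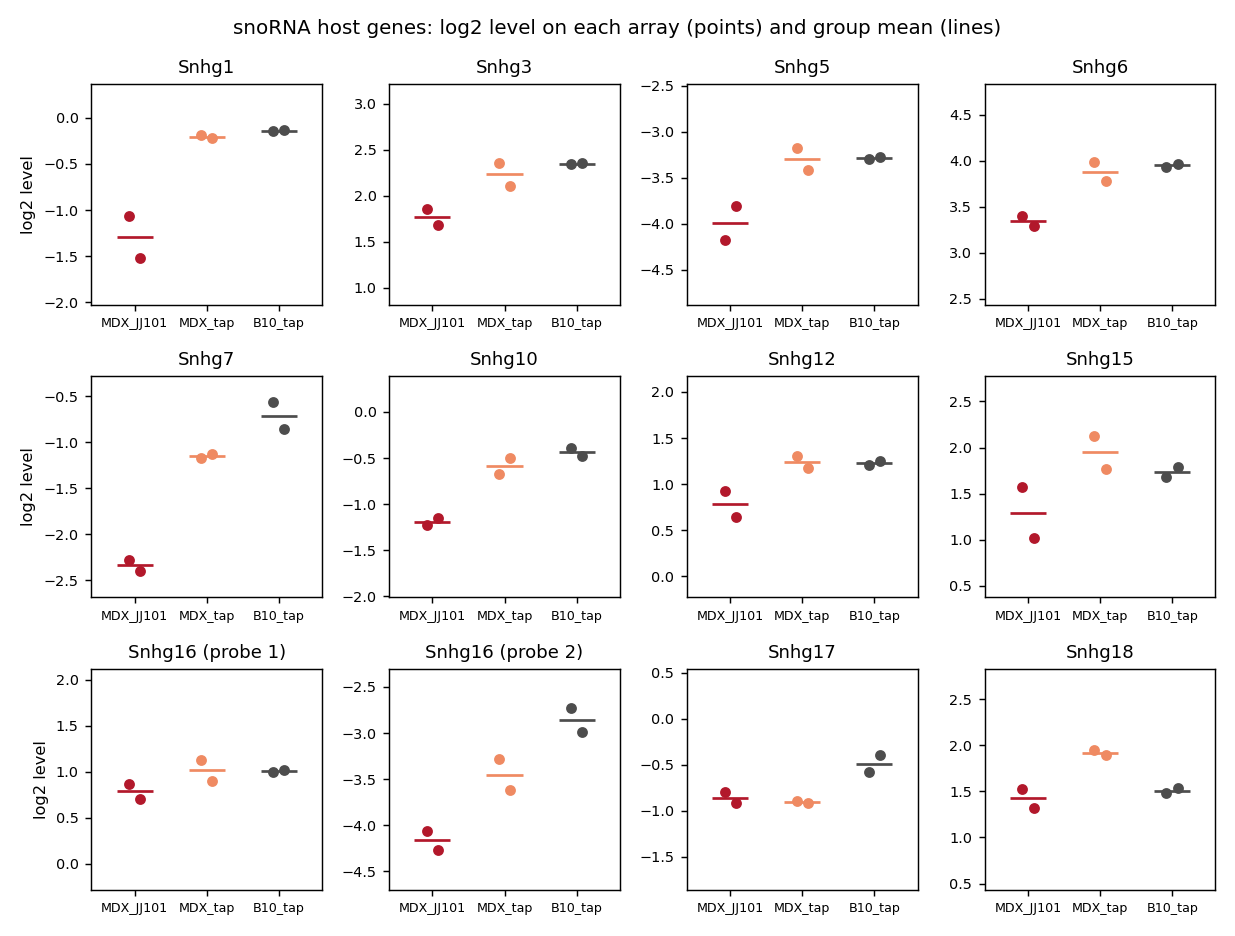
Log2 level (vertical axis, every panel 2.4 units high) of the 12 probes for Snhg genes on the 2 arrays of each group (points), with the group mean as a line. The MDX_JJ101 points lie below all other points in the panels of Snhg1, Snhg3, Snhg5, Snhg6, Snhg7, Snhg10, Snhg12, Snhg15 and both of Snhg16, and overlap those of another group in Snhg17 and Snhg18. Over all probes kept, 71.4% had no overlap between MDX_JJ101 and MDX_tap.

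Among nuclear RNAs the clearest change was in Malat1, an abundant RNA of nuclear speckles. It lay at -1.25 and -1.94 in MDX_JJ101, 0.30 and -0.48 in MDX_tap and -0.07 and 0.01 in B10_tap, with no overlap between MDX_JJ101 and the rest. It fell by 1.51 against MDX_tap (SE 0.34, adjusted p = 0.0276), and the fall ran from 0.90 to 1.94 over the 5 scalings. Neat1, the scaffold of paraspeckles and a neighbour of Malat1, lay at 3.22 and 4.02 in MDX_JJ101, 3.60 and 4.32 in MDX_tap and 4.75 and 4.63 in B10_tap. The first 2 groups overlapped, and the difference of -0.34 did not pass (adjusted p = 0.468). Norad, a cytoplasmic RNA that binds Pumilio proteins, had 4 probes with differences between 0.28 and 0.43, none of which passed. Tug1, an RNA with nuclear and cytoplasmic roles, had probes that disagreed: 2 fell by 0.77 and 0.69 (adjusted p = 0.029 and 0.0286) and the third stood at 0.07 (adjusted p = 0.653). Ftx, a gene of the X-inactivation centre, stood at -0.07 (adjusted p = 0.838). The list thus had 3 of 10 probes down and 0 up, or 30%, near the 33.8% of all probes called, and 1 down with median centring. Leaving out arrays gave 0 without MDX_tap replicate 2, without MDX_JJ101 replicate 2 or without either B10_tap replicate, 1 without MDX_tap replicate 1, and 3 up and 2 down without MDX_JJ101 replicate 1.

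Of the imprinted RNAs, Kcnq1ot1, the paternal antisense transcript of Kcnq1 that silences its neighbours, lay at -5.28 and -4.07 in MDX_JJ101, -2.94 and -2.19 in MDX_tap and -2.41 and -2.56 in B10_tap. It was well above background on no MDX_JJ101 array and on all 4 others. It was at least 1.68-fold lower than in MDX_tap (adjusted p = 0.025), and the fitted difference ran from -0.42 with normexp and quantile normalization to -2.54 with spike-in scaling. Kcnq1 itself rose by 0.96 (adjusted p = 0.0188). Airn, the paternal antisense transcript of Igf2r, had 2 probes that fell by 0.59 and 0.50 (adjusted p = 0.02 and 0.0278), and Igf2r stood at 0.27 (adjusted p = 0.138). The brighter Airn probe read 0.29 and 0.36 in MDX_JJ101, 0.83 and 1.00 in MDX_tap and 0.89 and 0.83 in B10_tap, without overlap. Neither Airn probe passed with median centring or spike-in scaling, and the dimmer one also failed with normexp and quantile normalization (-0.12) and in the authors' table (-0.05). Peg13, a paternally expressed RNA, stood in the other direction at 0.55 (adjusted p = 0.0505), while Dio3os at -0.66 (adjusted p = 0.205) and Igf2os at 0.01 (adjusted p = 0.992) did not pass. Of the 3 imprinted probes seen on all 6 arrays 2 fell, both for Airn. Kcnq1ot1 was kept through the tap water groups, so its being low was not independent of how it was chosen. In sum 3 of 6 probes fell and 0 rose, against 33.8% of all probes called and 15.4% lower, and with median centring 1 rose and 1 fell. None passed without either MDX_tap or either B10_tap replicate, 1 fell without MDX_JJ101 replicate 2, and 3 fell and 1 rose without MDX_JJ101 replicate 1.

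Dleu2 carries 2 microRNAs in an intron, and they are shown because they share a seed (bases 2 to 8, in capitals), the stretch by which a microRNA pairs with its targets. RefSeq places both on the minus strand of chromosome 14 (GRCm38.p6), miR-16-5p at chr14:61631936-61631957 and miR-15a-5p at chr14:61632075-61632096.
miR-16-5p: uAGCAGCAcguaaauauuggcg
miR-15a-5p: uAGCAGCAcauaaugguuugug
Their host Dleu2 lay at -2.00 and -2.17 in MDX_JJ101, -1.39 and -1.45 in MDX_tap and -1.36 and -1.25 in B10_tap. It fell by 0.66 (SE 0.12, adjusted p = 0.0174), and missed the threshold with normexp and quantile normalization (-0.20, adjusted p = 0.1) and in the authors' table (-0.28, adjusted p = 0.0611). The mature microRNAs were not analysed here. Pvt1, a host of microRNAs beside Myc, had probes at -0.25 and -0.40 that did not pass. Called in this comparison were 25% of the microRNA host probes, against 33.8% of all probes. Of the 4 probes of microRNA hosts 1 fell and 0 rose, and without MDX_JJ101 replicate 2, either MDX_tap replicate or either B10_tap replicate 0 passed, while 2 fell without MDX_JJ101 replicate 1.

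Outside the lists, several single transcripts fell with both MDX_JJ101 arrays below all others. Arrays of MDX_JJ101 and MDX_tap did not overlap for 71.4% of all probes kept. Dancr, an RNA known for holding progenitor cells undifferentiated, lay at -1.39 and -1.30 in MDX_JJ101, -0.15 and -0.22 in MDX_tap and 0.31 and 0.34 in B10_tap, and it fell by 1.16 against MDX_tap (SE 0.10, adjusted p = 0.0125). Gt(ROSA)26Sor, the RNA of the locus into which many transgenes are placed, lay at 0.92 and 0.63 in MDX_JJ101, 2.36 and 1.93 in MDX_tap and 2.15 and 2.24 in B10_tap, a fall of 1.37 (SE 0.19, adjusted p = 0.0142). Gdap10 lay at -2.47 and -1.97 in MDX_JJ101, -0.70 and -0.41 in MDX_tap and 0.18 and -0.13 in B10_tap. It fell by 1.67 (SE 0.22, adjusted p = 0.0141), the largest fall of any member seen on all 6 arrays. AW112010, an RNA induced in immune cells, lay at 2.63 and 1.95 in MDX_JJ101, 3.84 and 3.31 in MDX_tap and 3.81 and 3.70 in B10_tap, a fall of 1.28 (SE 0.28, adjusted p = 0.0268). It fell beside the macrophage markers, and their part in it was not tested. Rn4.5s lay at 7.81 and 7.82 in MDX_JJ101, 8.47 and 8.87 in MDX_tap and 8.90 and 8.78 in B10_tap, a fall of 0.86 (SE 0.16, adjusted p = 0.0194). As it is present in many near-identical copies, its signal may come from any of them.

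Members not well above background on either MDX_JJ101 array but on both MDX_tap and both B10_tap arrays have only a bound. They were kept through the groups where they were high, so their being low in MDX_JJ101 is not independent of how they were chosen. Rps15a-ps6, a copy of a ribosomal protein gene, was at least 1.81-fold lower than in MDX_tap (adjusted p = 0.0272), AI662270 at least 1.59-fold lower (adjusted p = 0.0144), G6bos at least 1.44-fold lower (adjusted p = 0.0402), D5Ertd605e at least 1.42-fold lower (adjusted p = 0.0185) and Phtf1os at least 1.16-fold lower (adjusted p = 0.0147). For Vax2os the bound was 1.43-fold (adjusted p = 0.0379, at least that much lower), and its fitted difference of -1.75 shrank to -1.04 without MDX_JJ101 replicate 2. Atad3aos passed (adjusted p = 0.02), but its bound was under 1 and no fold is given. Others with these flags did not pass, namely AA388235, BC031361, BC065397, Dio3os, Dnmt3aos, Foxd2os, both Speer5-ps1 probes and 1 Prmt6 probe. The reverse pattern was seen in 1 member, the Zfp207 variant printed above, which was well above background on both MDX_JJ101 arrays and on none of the other 4. As it was kept only through the group where it is high, it had to differ, and its values are a description. It was at least 7.79-fold higher than in MDX_tap (adjusted p = 0.0139) and at least 8.71-fold higher than in B10_tap (adjusted p = 0.0152). The brightest probe for the coding Zfp207 transcript, a zinc finger protein of the mitotic spindle, stood at -0.32 against MDX_tap (adjusted p = 0.0816) and fell by 0.40 against B10_tap (adjusted p = 0.0488).

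Transcripts with symbols ending in -ps fell where they changed. Of 24 probes for 20 such symbols, 6 fell and 0 rose (median -0.44), or 25% called against 33.8% of all probes. The wider RefSeq class of transcribed pseudogenes changed in both directions. Of its 37 probes 3 rose and 6 fell, and with median centring 4 rose and 2 fell. Slfn10-ps, a copy of an interferon-induced Schlafen gene, lay at -1.83 and -2.16 in MDX_JJ101, -0.81 and -0.96 in MDX_tap and -1.74 and -1.61 in B10_tap. It fell by 1.11 against MDX_tap (SE 0.15, adjusted p = 0.0141) and stood at -0.32 against B10_tap (adjusted p = 0.157). Znf41-ps, a zinc finger pseudogene, had the same order, with -1.42 and -2.10 in MDX_JJ101, -0.70 and -0.54 in MDX_tap and -1.62 and -1.60 in B10_tap, and fell by 1.14 (SE 0.23, adjusted p = 0.0234). Olfr1372-ps1 fell by 0.60, Stxbp3-ps by 0.57 and 1 of 2 Gpr137b-ps probes by 0.60. A pseudogene probe can also bind the RNA of its parent gene, so which of the copies was read is uncertain. No probe of the 24 passed when either MDX_tap array was left out, 1 when either B10_tap array was, 4 without MDX_JJ101 replicate 2 and 7 without MDX_JJ101 replicate 1.

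Rises were fewer. Bcor, a transcriptional corepressor gene read here through a non-coding variant, lay at 2.45 and 2.45 in MDX_JJ101, 1.23 and 1.66 in MDX_tap and 1.79 and 1.89 in B10_tap. It rose by 1.00 against MDX_tap (SE 0.17, adjusted p = 0.0166), while the brightest coding Bcor probe stood at 0.03 (adjusted p = 0.824). Etfb, which passes electrons from fatty acid oxidation to the respiratory chain, lay at 7.26 and 7.48 in MDX_JJ101, 6.74 and 6.83 in MDX_tap and 7.32 and 7.15 in B10_tap. It rose by 0.58 (SE 0.13, adjusted p = 0.0279), and its coding probe stood at 0.37 (adjusted p = 0.0942). Mipep, a peptidase of mitochondrial import, rose by 0.67 (adjusted p = 0.0309) and its coding probe by 1.1 (adjusted p = 0.0138). Adamtsl5 rose by 0.56 (adjusted p = 0.0183) and its coding probe by 1.28 (adjusted p = 0.0125). In the other direction, the Slc8a1 variant fell by 0.96 (adjusted p = 0.02) and the coding probe of this sodium-calcium exchanger gene stood at 0.13 (adjusted p = 0.659). Of the 14 probes for variants of coding genes, 6 rose and 2 fell, or 57.1%, against 33.8% of all probes. The 6 include the Zfp207 variant, which was kept through MDX_JJ101 alone and had to differ. Of the 9 such probes seen on all 6 arrays 5 rose and 1 fell. That was 66.7%, against 34.6% of all probes seen on all 6. With spike-in scaling 1 of the 14 rose and 2 fell. Whether these probes also read the coding transcripts was not analysed here, so a change of the variant alone cannot be told apart. AI854703 rose by 1.41 on 1 probe (SE 0.25, adjusted p = 0.0182), where 1 of the 2 MDX_tap arrays was well above background, and its second probe stood at 0.15 (adjusted p = 0.561). With spike-in scaling Zfp207 was the one member that still rose, and Bmp1, Thap6 and both Sp3os probes, which rose by 0.36 to 0.42, turned to between -0.02 and -0.07.

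**Figure D4:**
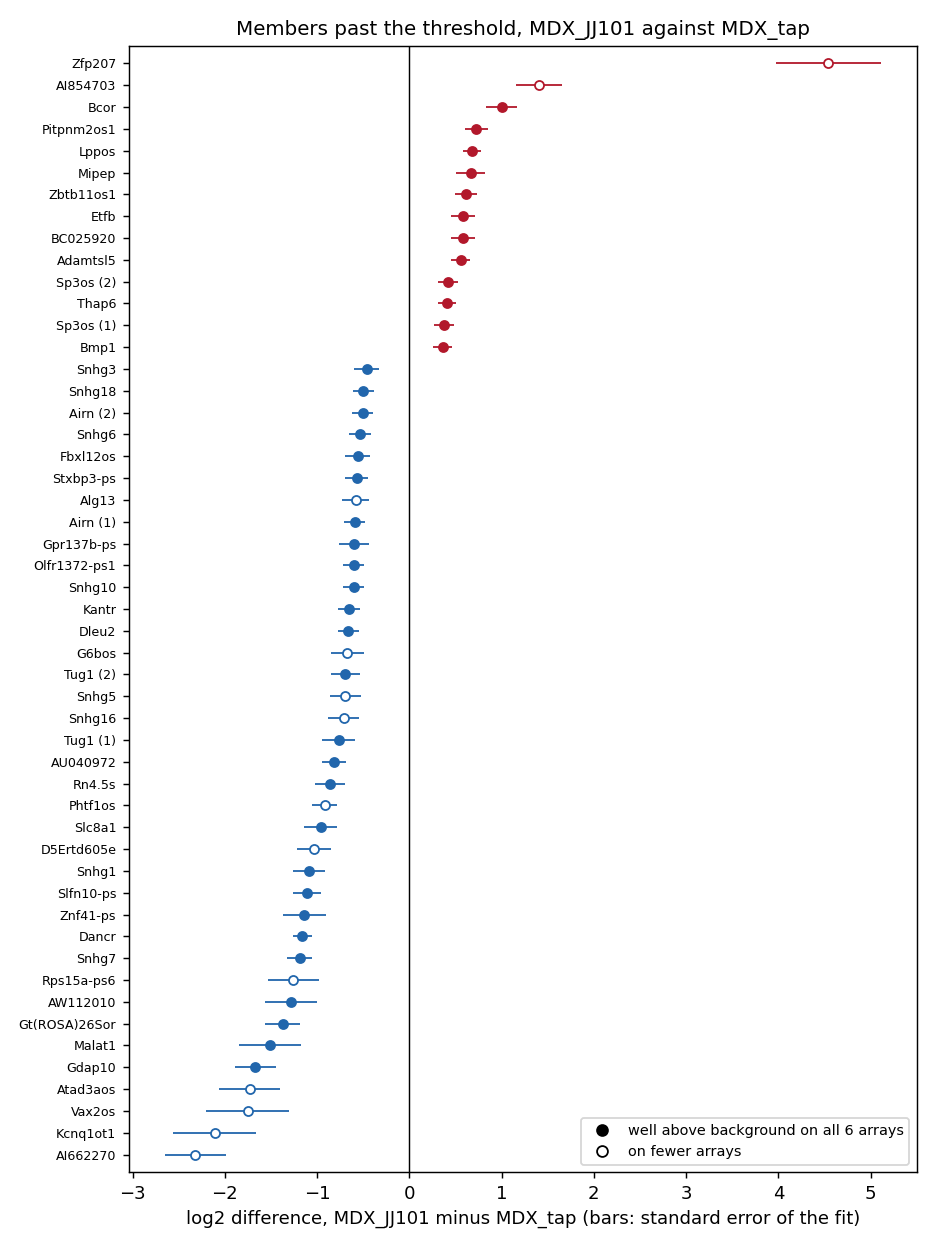
Log2 difference, MDX_JJ101 minus MDX_tap, with its standard error for the 51 member probes past the threshold, red for the 14 that rose and blue for the 37 that fell. Filled points were well above background on all 6 arrays and open points on fewer. Open points with a group below background, such as Zfp207 and AI662270, have only a bound, and their plotted position is the fitted value.

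Opposite-strand transcripts are named for the gene they overlap or face. Of 26 probes for 25 symbols 5 rose and 5 fell, or 38.5%, near the 33.8% of all probes. With spike-in scaling 0 rose and 8 fell. Of the falls, Atad3aos, Vax2os, G6bos and Phtf1os were kept through the tap water groups alone. Their direction was thus not independent of the choice of members. Of the 13 probes seen on all 6 arrays 5 rose and 1 fell (median 0.29). That was 46.2% called, against 34.6% of all probes seen on all 6. Lppos, which faces the adhesion gene Lpp, lay at 2.81 and 2.77 in MDX_JJ101, 2.07 and 2.14 in MDX_tap and 2.27 and 2.25 in B10_tap, and rose by 0.68 (SE 0.10, adjusted p = 0.0145) while Lpp stood at -0.22 (adjusted p = 0.514). Pitpnm2os1 lay at 1.23 and 1.31 in MDX_JJ101, 0.42 and 0.67 in MDX_tap and 0.67 and 0.64 in B10_tap. It rose by 0.73 (SE 0.13, adjusted p = 0.0174), and Pitpnm2, a phosphatidylinositol transfer protein gene, rose by 1.01 (adjusted p = 0.0151). Zbtb11os1 rose by 0.62 (SE 0.12, adjusted p = 0.0208) with Zbtb11 at -0.17 (adjusted p = 0.325). Fbxl12os fell by 0.56 (adjusted p = 0.031) with Fbxl12 at 0.14 (adjusted p = 0.436).

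For 22 of the 25 symbols a probe of the named gene was kept. In 8 of these pairs the opposite-strand transcript passed, in 7 the gene passed and in 3 both did, with 33.8% of all probes called in this comparison. Pitpnm2os1 and its gene rose together, whereas Atad3aos was low where Atad3a, a gene of the mitochondrial inner membrane, rose by 0.77 (adjusted p = 0.0152). Among the 8, Atad3aos, Vax2os and Phtf1os were kept through the tap water groups alone. Their being low was thus not independent of how they were chosen. Sp3os rose (adjusted p = 0.04997 for the probe compared) where the transcription factor gene Sp3 fell by 1.54 (SE 0.42, adjusted p = 0.0444). The Sp3 probe was well above background on 5 arrays and read -3.26 and -4.56 in MDX_JJ101, so the size of its fall is uncertain. Has2 fell by 1.23 (adjusted p = 0.0141), and Has2os stood at -1.02 (adjusted p = 0.289). Map2k3 and Med9 rose by 0.54 and 0.65 (adjusted p = 0.0223 and 0.0152), with Map2k3os at 0.13 and Med9os at 0.08. The strand each probe reads was not analysed here, so signal from the facing gene cannot be told apart. Without MDX_tap replicate 2 none of the 26 passed, 2 did without MDX_tap replicate 1 or either B10_tap replicate, 4 did with MDX_JJ101 replicate 2 left out and 10 with replicate 1 left out.

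**Figure D5:**
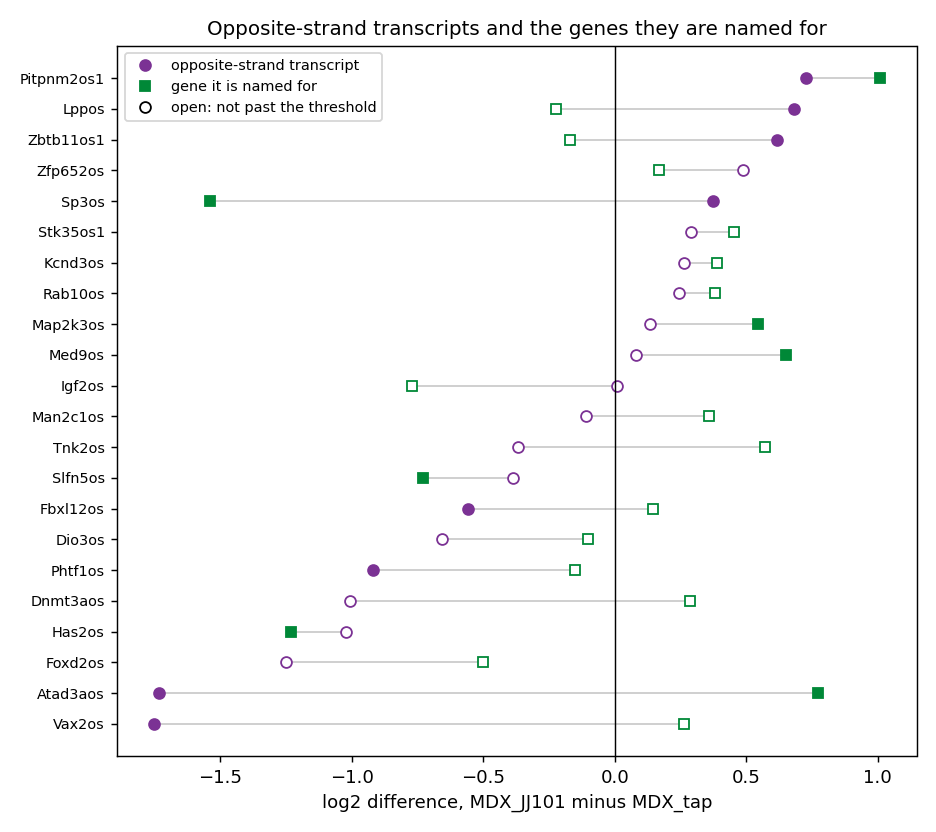
Log2 difference, MDX_JJ101 minus MDX_tap, of 22 opposite-strand transcripts (circles) and of the genes they are named for (squares), filled where the adjusted p was under 0.05. Both symbols are filled for Pitpnm2os1, where both rose, and for Sp3os and Atad3aos, where they lie on opposite sides of 0. Atad3aos was kept through the tap water groups alone, and its plotted position is the fitted value. For Sp3os 1 of 2 probes is drawn.

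Against B10_tap, which shares the MDX_JJ101 arrays with the comparison above, 46 of the 147 probes passed, or 31.3%, against 30.7% of all probes kept. Among the members 10 rose and 36 fell, and of all probes 14% rose and 16.7% fell. The median was -0.32 over the members and -0.02 over all probes. Among the 103 members seen on all 6 arrays 7 rose and 20 fell, against 17% and 11.5% of all probes seen on all 6, of which 28.5% passed. With median centring the split was 33 up and 17 down, and with spike-in scaling 3 up and 51 down. Over all probes it was 10090 up and 2087 down, and 134 up and 5839 down. Under all 5 scalings 12 member probes fell and 2 rose. Of these, Zfp207 was kept through MDX_JJ101 alone, and Rps15a-ps6 and G6bos through the tap water groups alone. Their directions were not independent of that choice. Calls fell most without a B10_tap replicate over all probes, and among the 147 members as well. One probe passed when B10_tap replicate 1 was left out and 2 when B10_tap replicate 2 was, against 24 without MDX_JJ101 replicate 2, 49 without MDX_JJ101 replicate 1 and 42 without either MDX_tap replicate.

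Dancr had the smallest p of the members here, with a fall of 1.67 (SE 0.10, adjusted p = 0.00428). Snhg7 fell by 1.63 (SE 0.14, adjusted p = 0.00636), Gdap10 by 2.25 (SE 0.22, adjusted p = 0.00886), AU040972 by 1.09 (SE 0.13, adjusted p = 0.0106) and Malat1 by 1.56 (SE 0.34, adjusted p = 0.0272). Of the 12 Snhg probes 7 fell and 0 rose (median -0.59), with Snhg1 at -1.16 (adjusted p = 0.0144), while 0 passed without B10_tap replicate 1, 1 without B10_tap replicate 2 and 5 without MDX_JJ101 replicate 2. Kcnq1ot1 was at least 1.78-fold lower (adjusted p = 0.0249), Rps15a-ps6 at least 2.43-fold lower (adjusted p = 0.017) and G6bos at least 2.18-fold lower (adjusted p = 0.0132). For Vax2os the bound was 1.49-fold (adjusted p = 0.0371, at least that much lower), and its fitted difference of -1.82 shrank to -1.11 without MDX_JJ101 replicate 2. AI662270 passed at -1.18 (adjusted p = 0.0492) with no fold above its bound, and stood at -0.71 without MDX_JJ101 replicate 2. AW549542, well above background on 1 MDX_JJ101 array, fell by 1.41 (adjusted p = 0.0147).

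Among the rises against B10_tap, Eprn, an RNA known from embryonic stem cells, lay at -2.34 and -1.93 in MDX_JJ101, -2.39 and -2.79 in MDX_tap and -3.93 and -4.04 in B10_tap. Both MDX groups were above B10_tap, where 1 of 2 arrays was well above background, and Eprn rose by 1.85 in MDX_JJ101 (SE 0.20, adjusted p = 0.0101). Platr26, another stem cell RNA, rose by 1.22 on 1 of 2 probes (adjusted p = 0.0299), with the other at 0.64 (adjusted p = 0.264). Lppos rose by 0.53 (adjusted p = 0.0208), Pitpnm2os1 by 0.62 (adjusted p = 0.0248), Bcor by 0.61 (adjusted p = 0.0469) and Crnde, an RNA named for colorectal neoplasia, by 0.44 (adjusted p = 0.0375). With spike-in scaling Crnde turned to -0.02. Mcpt-ps1, a mast cell protease pseudogene, passed at 1.72 (adjusted p = 0.044), but both groups were below background, so no fold is given, and it stood at 1.05 without MDX_JJ101 replicate 1.

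Between MDX_tap and B10_tap no named non-coding transcript passed the test, and 15 of all 27258 probes did (0.055%), with 0.00734% higher and 0.0477% lower. Of the 103 members and 21775 probes seen on all 6 arrays 0% passed. By limma 29 of the 147 members had an unadjusted p under 0.05, as did 5523 of all 27258 probes. The members' median was -0.08, against -0.07 over all probes. The smallest p among those higher in MDX_tap belonged to Eprn, at 1.40 (SE 0.20, adjusted p = 0.0859), Slfn10-ps, at 0.79 (SE 0.15, adjusted p = 0.111), and Mcpt-ps1 (adjusted p = 0.115), for which only a bound of at least 1.68-fold higher can be given. Mcpt-ps1 read -3.65 and -3.22 in MDX_tap, where it was well above background, and -5.93 and -5.58 in B10_tap, where it was not, and it was kept through MDX_tap alone. Among those lower in MDX_tap, AU015791 stood at -1.12 (SE 0.13, adjusted p = 0.0757), Particl at -1.03 (SE 0.16, adjusted p = 0.0905), Trmt61b, a variant of a mitochondrial tRNA methyltransferase gene, at -0.63 (SE 0.11, adjusted p = 0.0995), BC037704 at -0.94 (SE 0.18, adjusted p = 0.11) and Dancr at -0.51 (SE 0.10, adjusted p = 0.115). Slfn10-ps passed with normexp and quantile normalization (0.50, adjusted p = 0.0493) and in the authors' table (0.57, adjusted p = 0.0481). With spike-in scaling Eprn rose by 1.37 (adjusted p = 0.0343). AI504432, kept through B10_tap alone, and Mcpt-ps1 also passed there, and no size is read from them. A p that misses the threshold with 2 arrays a group does not show that the levels were alike.

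Read side by side, the 3 groups fell into different orders for different transcripts. Snhg1, Malat1, Airn and Dleu2 were low in MDX_JJ101 while their MDX_tap and B10_tap means differed by 0.05 to 0.11, apart from 1 Airn probe at 0.27. Dancr had means of -1.35 in MDX_JJ101, -0.18 in MDX_tap and 0.32 in B10_tap. Snhg7 had -2.34, -1.15 and -0.71 and Gdap10 -2.22, -0.55 and 0.02 in the same groups, an order in which the MDX_tap and B10_tap means did not differ past the threshold. Slfn10-ps and Znf41-ps had their highest levels in MDX_tap, and Eprn its lowest in B10_tap.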

How the data were processed

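Total RNA of 6 samples was read on Agilent single-colour arrays. Per the file headers, the deposited spot intensity values came from Agilent Feature Extraction 11.5.1.1, which subtracted background and set detection flags of 0 or 1. The authors' deposited table holds log2 values, for which the normalization and the scale's centring are not given in the sources used here. Its columns have medians of 5.68 to 5.69, and within each array they rank the spots as the median spot signal does (Spearman 1.00).

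Groups came from the labels. The main values were log2 processed signals minus the 75th percentile of the 59305 non-control spots of each array. Spots marked as outliers were left out, and spots of a probe were averaged. Kept were 27258 probes that were well above background on both arrays of a group, members included. One coefficient per group was fitted over all 6 arrays with limma 3.58.1 (lmFit and eBayes, R 4.3.3), and p-values were adjusted by Benjamini-Hochberg over all probes kept. Where a group's arrays were all below background, the fold is a bound, set against the higher of the probe's own signal and the lowest signal well above background on each array, and such bounds are given as "at least". With 2 arrays a group, the number of arrays limits the precision.

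Alternatives were median centring, spike-in scaling, normexp with an offset of 50 and quantile normalization, the authors' table, no filter, 1 probe per symbol, only the groups compared, a replicate block, slide column as a block and leaving out each array. Normexp used the median spot signal, since the mean signal planned for it is not used here. Gene names came from RefSeq by accession, and 67 of 1426 NR_ probes had no symbol there. Named in the text are members on the lists (imprinted, small nucleolar RNA host, nuclear, microRNA host, heart, opposite-strand, pseudogene), the 8 highest and 8 lowest past the threshold in each comparison, the 5 with the smallest p where under 5 passed, the 8 with the highest mean, and those detected on both arrays of 1 group and none of another. Others were chosen after their values were seen, such as variants of coding genes and members that changed under all scalings. Members and lists were chosen with earlier results of these data known. One result is not reported here.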

Additional observations from a re-analysis of the deposited data

How the results depend on the processing

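Leaving out each array gave 1 to 56 member probes past the threshold in MDX_JJ101 against MDX_tap and 1 to 49 against B10_tap, where all arrays gave 51 and 46. Between MDX_tap and B10_tap every such fit gave 0 members, while spike-in scaling gave 3 and normexp with quantile normalization and the authors' table gave 1 each. In the 2 comparisons with MDX_JJ101, calls over all probes also fell in most fits with 1 array left out. In MDX_JJ101 against MDX_tap, fitting only the 2 groups gave 13 members and 2841 of all probes. Slide column as a block gave 0 of either. The 15 probes of all that passed between MDX_tap and B10_tap became 256 with median centring, 539 with spike-in scaling, 521 with normexp and quantile normalization, 437 in the authors' table and 0 with no filter. Direction changed for Particl against B10_tap with normexp and quantile normalization (0.01169), for Phtf1os against B10_tap with the same (0.0459) and in the authors' table (0.05034), and for both Sp3os probes against MDX_tap with spike-in scaling (-0.0193 and -0.06292). With the same scaling Bmp1 (-0.07) and 1 Thap6 probe (-0.03) turned against MDX_tap, and Crnde and that Thap6 probe (both -0.02) against B10_tap. The cause was not tested. With the replicate number as a block, 45 members passed against MDX_tap, 40 in MDX_JJ101 against B10_tap and 0 in MDX_tap against B10_tap. Deviations of same-numbered arrays correlated at 0.1463, -0.0548 and -0.0233 in these comparisons, over 2 pairs each, so the numbers were not taken as a pairing. Members below background in a group have only a bound there.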

Other observations

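Protein-coding genes of imprinted loci, which are no members, were called about as often as all probes in MDX_JJ101 against MDX_tap. Of 14 tested 4 rose and 1 fell, or 35.7% against 33.8% of all probes. With spike-in scaling 0 rose and 2 fell, and with normexp and quantile normalization 4 rose and 4 fell. Kcnq1, a potassium channel gene, rose by 0.96 (adjusted p = 0.0188 by limma), Snrpn, a splicing protein gene, by 0.85 (adjusted p = 0.02), Copg2, a coatomer subunit gene, by 0.59 (adjusted p = 0.0257) and Gnas, a G protein gene, by 0.49 (adjusted p = 0.0289). Plagl1, a zinc finger gene, lay at 0.39 and 0.21 in MDX_JJ101, 1.47 and 1.33 in MDX_tap and 0.62 and 0.40 in B10_tap, and fell by 1.10 against MDX_tap (adjusted p = 0.0139). Among genes of paraspeckle proteins, the partners of Neat1, Dazap1 rose by 0.58 (adjusted p = 0.0369 by limma). The core paraspeckle genes Nono, Sfpq and Pspc1 stood at 0.02, -0.19 and 0.21 and did not pass.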
